A study of Rattus norvegicus with 18 samples.

Results

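The interferon gamma pathway was followed through 9 named genes in a rat model of heart transplantation: the ligand gene Ifng, the receptor gene Ifngr1, the transcription factor genes Irf1 and Irf8, the inhibitor gene Socs1 and the effector genes Gbp2, Gbp5, Ido1 and Ubd. They were chosen by name, with earlier results of these data known, so counts of them set against all probe sets only describe these arrays. A gene was taken up where a probe set of the array carried its symbol and no other. That held for 8 of the 9, and no such probe set was found for Gbp5. The 8 genes stand among 14217 genes measured in this way. Where a gene had several probe sets, the one with the highest mean over all arrays was used.

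Hearts of Wistar Furth donors had been placed in the abdomen of ACI recipients, all adult males of inbred strains. Recipients of the first kind received cyclosporine, an inhibitor of calcineurin and so of T cell activation, by mouth at 10 mg/kg/day on days 0 to 2, plus 1 mg/kg of an allochimeric RT1.A peptide into the portal vein at surgery. Recipients of another kind received the cyclosporine course alone, which the protocols call below therapeutic, and the last kind received no treatment. No injection without peptide is described, so effects of the peptide and of the portal injection cannot be told apart. Days 1, 3 and 7 were sampled in allografts and in T cells, with 1 array for each of the 18 combinations of sample type, treatment and day. All animals carried a mismatched graft, and neither ungrafted hearts nor grafts between rats of the same strain are among these samples. The labels give neither the organ nor the purification of the T cells, and they name Wistar Furth as the strain of every sample, so the strain of the T cells is not settled. Nor do they tell whether arrays came from the same animal or from pooled RNA, so each p-value reflects only how these samples vary, and that variation may be technical.

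Interferon gamma is made mainly by activated T cells and natural killer cells. It binds a receptor built from the IFNGR1 and IFNGR2 chains, which signals through the kinases JAK1 and JAK2. Gamma-activated sites (GAS) in promoters mark genes such as Irf1 that respond to it, and the product of Irf1 in turn drives further targets through interferon regulatory factor (IRF) sites. SOCS1, itself induced by the pathway, blocks the kinases. In heart allografts, graft-reactive T cells are a known source of the cytokine during acute rejection, and graft cells are among those that respond to it.

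RefSeq promoter windows on the GRCr8 build (250 bases before to 50 bases after the annotated start, 300 in all) were found for 7 of the 8 genes. They were searched on both strands for the GAS letters TTCNNNGAA, a palindrome, and the IRF letters GAAANNGAA. Of the 33469 promoters in the table, 8.87% held the GAS letters, 9.71% the IRF letters and 17.5% either. Of the 7 members, 3 held the GAS letters, 2 held the IRF letters and 4 held either, which is a description of these windows and not evidence of binding. The windows of Irf1 (chr10:38417685-38417984), Irf8 (chr19:65699034-65699333), Socs1 (chr10:5389324-5389623) and Gbp2 (chr2:234005477-234005776) are shown because they hold a match, with the matching bases in capitals, all read on the + strand.
Irf1: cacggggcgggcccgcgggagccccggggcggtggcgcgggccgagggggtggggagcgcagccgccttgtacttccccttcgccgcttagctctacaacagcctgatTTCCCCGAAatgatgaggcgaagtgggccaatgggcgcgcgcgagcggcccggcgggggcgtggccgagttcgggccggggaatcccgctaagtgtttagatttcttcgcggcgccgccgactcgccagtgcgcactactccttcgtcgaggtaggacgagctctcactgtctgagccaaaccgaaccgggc
Irf8: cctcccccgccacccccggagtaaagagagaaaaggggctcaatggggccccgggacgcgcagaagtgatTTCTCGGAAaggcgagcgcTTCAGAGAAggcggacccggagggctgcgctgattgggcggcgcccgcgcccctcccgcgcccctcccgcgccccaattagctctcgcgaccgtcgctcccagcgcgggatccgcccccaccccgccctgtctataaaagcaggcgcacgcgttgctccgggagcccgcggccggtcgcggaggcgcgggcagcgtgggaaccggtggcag
Socs1: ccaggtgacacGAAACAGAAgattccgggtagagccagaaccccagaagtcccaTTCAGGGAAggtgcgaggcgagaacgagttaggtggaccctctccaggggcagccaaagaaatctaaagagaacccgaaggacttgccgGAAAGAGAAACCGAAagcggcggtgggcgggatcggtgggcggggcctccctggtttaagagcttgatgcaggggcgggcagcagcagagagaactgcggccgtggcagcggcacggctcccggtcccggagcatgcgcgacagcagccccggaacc
Gbp2: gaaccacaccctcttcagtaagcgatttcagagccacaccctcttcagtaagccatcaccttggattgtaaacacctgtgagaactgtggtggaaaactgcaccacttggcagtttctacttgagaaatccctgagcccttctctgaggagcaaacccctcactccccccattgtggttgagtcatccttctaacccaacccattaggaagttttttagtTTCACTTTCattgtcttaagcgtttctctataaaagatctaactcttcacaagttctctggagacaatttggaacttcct
Counted from the annotated start as position 0, the first base of the GAS match lay at -142 in Irf1 and at -196 in Socs1, and the 2 matches in Irf8 began at -180 and -161. Socs1 also had 3 IRF matches, at -239, -107 and -101, of which the last 2 overlap. The IRF match of Gbp2, at -30, reads on the opposite strand. The letters were not found in the windows of Ifng, Ifngr1 and Ubd, which says only that these letters are not in those 300 bases.

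Values are the linear intensities of the deposited table. Differences are on the scale log2(intensity + 16) with the SE of the fit, and a difference was called at a Benjamini-Hochberg adjusted p below 0.05 over all probe sets tested. A level of one gene cannot be set against that of another, because probe sets differ in brightness. Array medians lay between 210 and 231 in the allografts and between 195 and 210 in the T cells. Summed intensities of 6 cardiomyocyte markers were 60900 to 79220 in allografts and 351.7 to 512.2 in T cell arrays. Those of 10 T cell markers were 48790 to 69410 in T cell arrays. The T cell arrays also showed signal of B cell markers (3 of 5 listed genes on the array, sum 6143 to 20890) and macrophage markers (9 genes, sum 29280 to 51270). Natural killer cell markers (5 genes) summed to 13860 to 21710 on these arrays, with the receptor gene Ncr1 at 454 to 1085. The array of T cells from untreated recipients on day 1 stood apart, with a neutrophil marker sum of 35360 against 970.7 to 3088 on the other T cell arrays, the highest B cell sum (20890) and the lowest T cell sum (48790). Called differences that use this array are also given without it where this changes the call or moves the value by more than 1.5 times.

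The time course of the allografts asked how gene expression in the graft changed after transplantation. All 8 genes were higher on day 7 than on days 1 and 3 in each of the 3 treatment groups. On day 7 no gene's values overlapped with its values on days 1 and 3. The share of all probe sets without such overlap was not counted, so the lack of overlap is no result about these genes. Between days 3 and 7, 56.4% of probe sets were called in either direction. The differences between day 7 and day 1 ran between 0.78 and 6.35 on the log2 scale, and each was called higher, where 30.9% of the 19737 probe sets tested were.

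Ifng, the ligand gene (probe set 1370790_at), had intensities of 49.6, 44.5 and 389 on days 1, 3 and 7 in allografts given cyclosporine plus peptide. It had 59.2, 50.5 and 393 with cyclosporine alone and 64.3, 88.0 and 478 in untreated allografts. The values of days 1 and 3 were all under the array's 40th percentile, so Ifng was near the lower limit of measurement until day 7. Day 7 exceeded day 1 by 2.56 ± 0.14 (adjusted p = 3.76e-06, n = 3 arrays a day). Ifngr1, which encodes the ligand-binding receptor chain (1369956_at), was bright throughout. It stood at 3491, 4890 and 6858 with cyclosporine plus peptide, 4041, 4226 and 6342 with cyclosporine and 4014, 5262 and 6578 without treatment. Its day 7 minus day 1 difference of 0.78 ± 0.08 (adjusted p = 9.53e-05) was the smallest of the 8.

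Irf1, the transcription factor gene with a GAS match in the window above (1368073_at), had 1327, 1939 and 8016 with cyclosporine plus peptide and 1934, 1607 and 7938 with cyclosporine. In untreated allografts it had 1632, 3219 and 7656, so the untreated graft of day 3 lay between its early and late values. Day 7 exceeded day 1 by 2.28 ± 0.21 (adjusted p = 4.69e-05). Irf8, a transcription factor gene of myeloid and lymphoid cells (1372097_at), had 856, 1240 and 4844 with cyclosporine plus peptide, 1147, 984 and 4816 with cyclosporine and 804, 1358 and 3861 without treatment. Its difference was 2.26 ± 0.17 (adjusted p = 1.48e-05), close in size to that of Irf1.

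Socs1, the feedback inhibitor gene (1371252_at), had 47.7, 73.7 and 1396 with cyclosporine plus peptide and 66.4, 65.8 and 1319 with cyclosporine. In untreated allografts it had 58.8, 238 and 1170, with the day 3 value again between the early and late ones. Day 7 exceeded day 1 by 4.16 ± 0.34 (adjusted p = 2.5e-05). The other Socs1 probe set on the array (1375568_at) did not show this: it ran between 152.5 and 240.4 over the 9 allograft arrays, with a difference of -0.12 ± 0.14 (adjusted p = 0.48). The 2 probe sets disagree, and every Socs1 result here is that of 1371252_at alone.

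Among the effectors, Gbp2, an interferon-induced guanylate-binding protein of cell-autonomous defence (1368332_at), had 915, 1126 and 8935 with cyclosporine plus peptide, 1224, 1068 and 8160 with cyclosporine and 1126, 1761 and 9357 without treatment. The difference between day 7 and day 1 was 3.01 ± 0.15 (adjusted p = 3.07e-06). Ido1, which encodes a tryptophan-degrading enzyme that restrains T cells (1387608_at), had 46.8, 46.5 and 2413 with cyclosporine plus peptide. It had 38.4, 46.1 and 2219 with cyclosporine and 49.4, 30.7 and 2831 without treatment. The 6 early values were under the 40th percentile, and day 7 was higher by 5.36 ± 0.15 (adjusted p = 8.43e-07). Ubd, which encodes the ubiquitin-like modifier FAT10 (1368762_at), had 96.7, 303 and 13640 with cyclosporine plus peptide, 214, 153 and 12700 with cyclosporine and 128.5, 587 and 11550 without treatment. Its difference of 6.35 ± 0.42 (adjusted p = 9.28e-06) was the largest of the 8, and it ranged most widely between arrays on days 1 and 3.

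**Figure D1:**
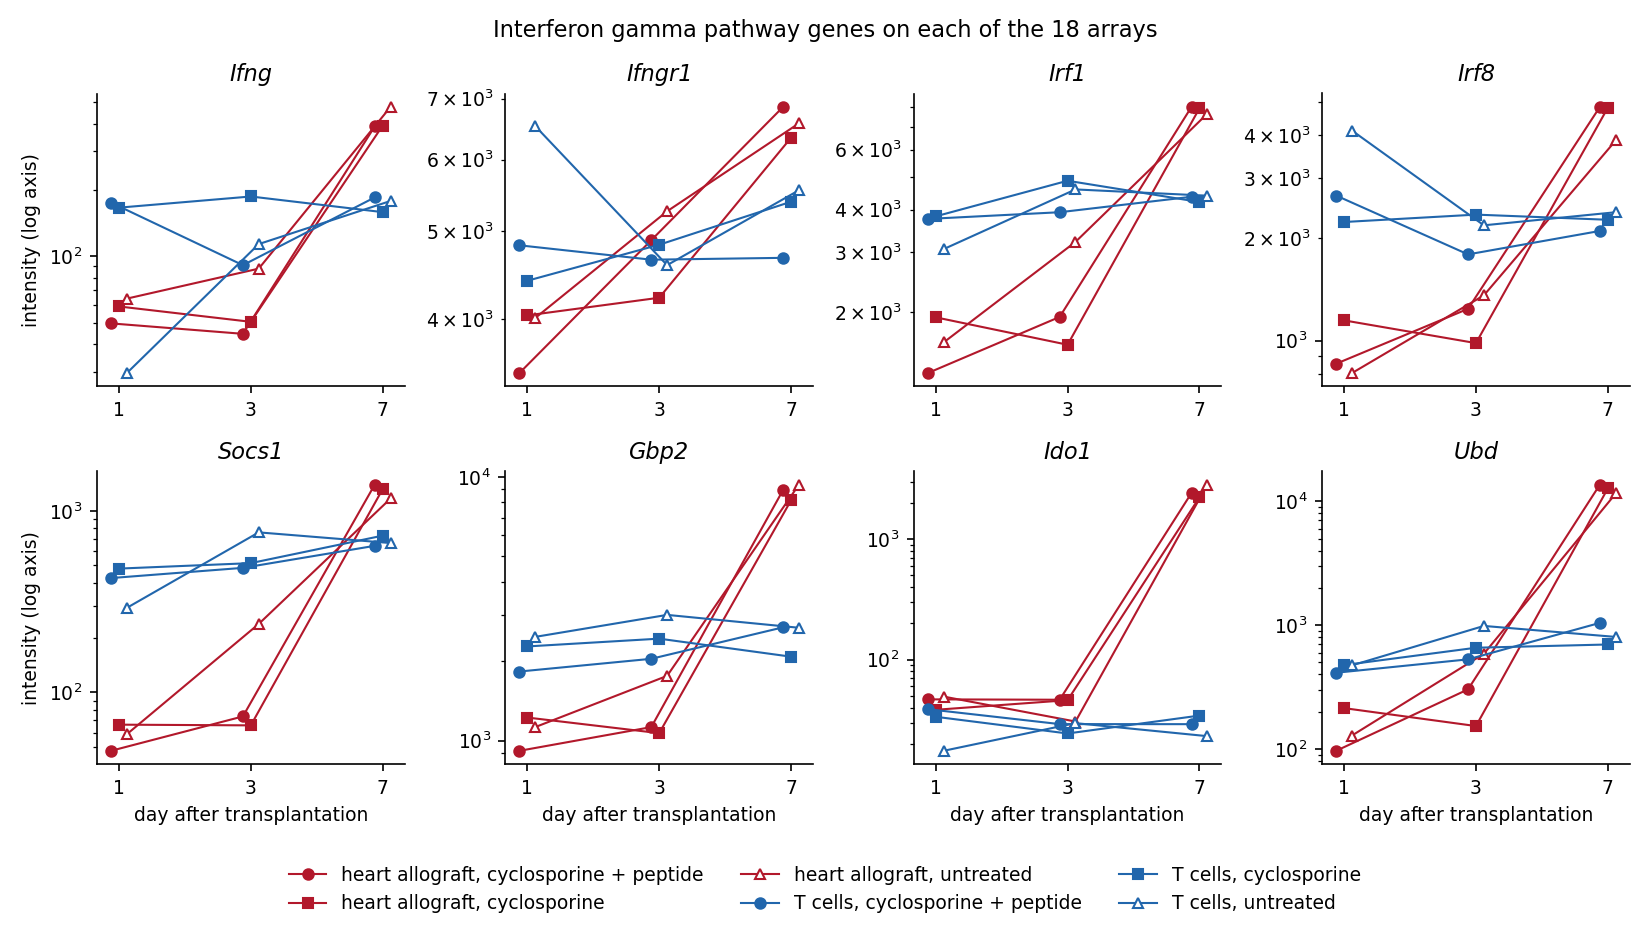
Intensity of the 8 genes on each of the 18 arrays by day after transplantation (log axis, with its own range in each panel). Red marks allografts and blue marks T cells, with circles for cyclosporine plus peptide, squares for cyclosporine and open triangles for untreated. In the allografts all 8 genes are highest on day 7 in every treatment group, as with Ubd at 11550 to 13640.

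Ifng and Ido1 passed the filter on low signal only through their day 7 arrays, and Socs1 through those and the untreated array of day 3, so these genes were tested because they were high there, and the count of 8 is no support by itself. Between days 3 and 7, again 8 of 8 were called higher, where 26.9% of probe sets were. Differences between days 3 and 7 ran between 0.46 ± 0.08 for Ifngr1 and 5.46 ± 0.15 for Ido1. Between days 1 and 3, only Ifngr1 was called, at 0.31 ± 0.08 (adjusted p = 0.0284), where 14.6% of probe sets were higher. It lost its call with centring on array medians (0.24, adjusted p = 0.0598) and without the untreated allograft of day 3 (0.26, adjusted p = 0.11). The Ifngr1 call was also lost without the untreated arrays (0.27, adjusted p = 0.0958) and without the cyclosporine plus peptide arrays (0.23, adjusted p = 0.17). Without the cyclosporine arrays 3 members were called higher, Ifngr1, Irf8 (0.64) and Ubd (1.78), where 1191 of 18987 probe sets were.

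Markers of infiltrating cells moved over the same days, not all in one direction. In the allografts the summed intensity of the 10 T cell markers was 19860 to 24350 on day 7, against 1397 to 2350 on day 1. The 5 natural killer markers summed to 8774 to 10250 on day 7, against 926 to 1045 on day 1, although Ncr1, a defining receptor of these cells, stood at only 69.9 to 181 on day 7. The 9 macrophage markers summed to 50590 to 53160 on day 7, against 13430 to 14310 on day 1. The sum of the 5 neutrophil markers fell to 2930 to 5538 on day 7, against 7242 to 16500 on day 1, and 3 genes were called lower. Csf3r did not follow the sum, with 450 to 798 on day 1 and 562 to 738 on day 7. The 4 endothelial markers on the array fell to 3108 to 4237 on day 7, against 7786 to 8607 on day 1, and all 4 genes were called lower. The ratio of 3' to 5' actin signal was 1.41 to 1.43 on day 7 and 1.84 to 2.44 on day 1, whereas that of GAPDH was 1.51 to 1.54 and 1.5 to 1.57. The part of these shifts in the members' differences was not tested, and in bulk tissue fewer cells of a type and less RNA per cell cannot be told apart.

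Of 65 other genes listed for the pathway, 50 had a probe set and 49 were tested in the allografts. The lists too were chosen with earlier results of these data known, so their counts only describe these arrays. On day 7, 44 of the 49 were higher than on day 1 and 0 lower, with a median of 1.69, against -0.02 over all probe sets. All 5 inducers tested were higher. Among them were Stat4, which relays interleukin 12 signals (2.44 ± 0.11), Il18 (2.06 ± 0.12) and the interleukin 27 subunit gene Ebi3 (1.85 ± 0.17). Stat4 (90.75 to 118.7 on days 1 and 3), the inducer Eomes (57.7 to 67.8) and the target Kynu (45.6 to 66.1) were weak until day 7. Such genes could pass the filter on low signal through day 7 alone, so counts that hold them are no support by themselves. Of 4 receptor and relay genes 3 were higher, Ifngr2 for the partner receptor chain (1.01 ± 0.08), Jak2 (0.50 ± 0.12) and Jak1 (0.27 ± 0.06). Of 6 negative regulators 4 were higher, led by the phosphatase gene Ptpn6 (2.08 ± 0.12), then Cish (0.47 ± 0.08) and Pias1 (0.20 ± 0.06), while Socs3 stood at -0.23 ± 0.10 (adjusted p = 0.0776).

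Most members of each list of target genes were also higher on day 7 than on day 1. The 6 transcription regulators were led by the MHC class II transactivator gene Ciita (4.38 ± 0.25), Batf2 (3.54 ± 0.19) and Nlrc5, which drives MHC class I genes (2.64 ± 0.17). The 3 chemokine genes whose products attract CXCR3-bearing T cells were higher, Cxcl9 by 3.87 ± 0.43, Cxcl10 by 3.01 ± 0.34 and Cxcl11 by 1.69 ± 0.14. All 5 GTPase genes were higher, with Gbp4 at 3.49 ± 0.15, Gbp7 at 2.84 ± 0.21 and Irgm at 2.75 ± 0.17. Early signal was weak for Nlrc5 (117.7 to 215.7 on days 1 and 3), Batf2 (129.5 to 273.7) and Gbp4 (121.2 to 244). The limit given for Stat4, Eomes and Kynu may hold for these genes too. All 10 antigen processing genes were higher, with the peptide transporter gene Tap1 at 3.42 ± 0.26 and the immunoproteasome genes Psmb9 at 2.71 ± 0.15 and Psmb8 at 2.55 ± 0.09. Of 10 other targets 8 were higher, with Il18bp, for a secreted inhibitor of interleukin 18, at 2.69 ± 0.19, Casp1 at 1.80 ± 0.10 and Fcgr1a at 1.65 ± 0.12.

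Fewer of the 49 differed between days 1 and 3, where 7 were higher and 3 lower. The share of higher genes was near that of all probe sets, of which 14.6% were higher and 12.9% lower. The higher ones were led by Ebi3 (1.52 ± 0.17), Cd74, the MHC class II invariant chain gene (1.13 ± 0.12), and Ciita (1.08 ± 0.25). The lower ones were Cxcl11 (-0.66 ± 0.14), Cish (-0.37 ± 0.08) and Stat3 (-0.33 ± 0.08).

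T cells were profiled on the same days. No member was called between any pair of days in T cells. Ifng had 176, 91.2 and 185 on days 1, 3 and 7 with cyclosporine plus peptide, 166, 187 and 159 with cyclosporine and 29.5, 114 and 178.5 without treatment. The lowest value was that of the untreated day 1 array that stood apart. Irf1 stayed within 3065 to 4865 over all 9 arrays and Gbp2 within 1829 to 2999. Socs1 had 426, 485 and 642 with cyclosporine plus peptide, 481, 515 and 730 with cyclosporine and 292, 761 and 665 without treatment. Ubd had 413, 529 and 1043 with cyclosporine plus peptide, 476, 657 and 698 with cyclosporine and 473, 985 and 803 without treatment. Both genes were above their day 1 value on day 7 in all 3 groups.

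Between days 1 and 7 in T cells, 0 of 7 members tested were called by limma, where 0.575% of probe sets were. An unadjusted p below 0.05 was reached by 3 members, among 4654 of the 19464 probe sets. Ubd stood at 0.86 ± 0.21 (adjusted p = 0.0861), Socs1 at 0.77 ± 0.22 (adjusted p = 0.104) and Irf1 at 0.29 ± 0.10 (adjusted p = 0.15). Without the untreated day 1 array Ubd stood at 0.79 (adjusted p = 0.167), Socs1 at 0.47 (adjusted p = 0.172), Irf1 at 0.17 (adjusted p = 0.311) and Ifng at 0.05, against 0.70 with it. Between days 1 and 3 Ifng then stood at -0.38, against 0.28 with it. Between days 1 and 3 and between days 3 and 7, 0 members and 0% of probe sets were called. Those with an unadjusted p below 0.05 were 4 and 0 members, among 1615 and 1050 probe sets. Ido1 was not tested in T cells, since its intensities of 17.5 to 38.8 lay under the 40th percentile on all 9 arrays. Of the 46 other pathway genes tested in T cells, 0 were called between days 1 and 7.

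**Figure D2:**
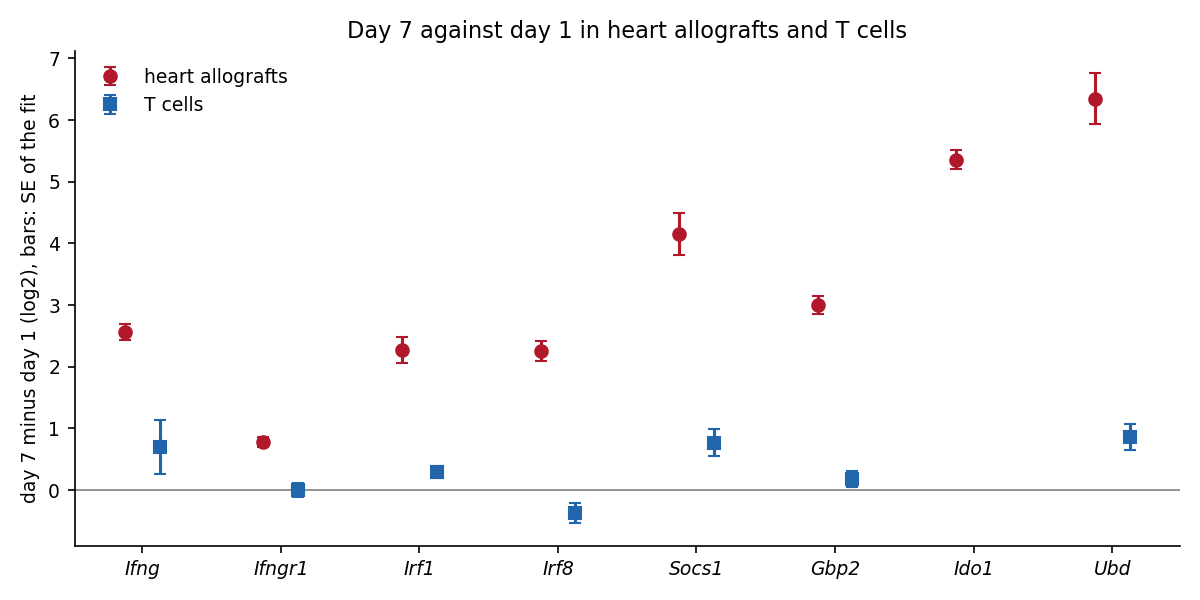
Day 7 minus day 1 on the log2(intensity + 16) scale for each gene, with bars for the SE of the fit over 9 arrays, in allografts (red circles) and T cells (blue squares). Allograft differences lie between 0.78 and 6.35, and those of the 7 genes tested in T cells between -0.37 and 0.86. Ido1 was not tested in T cells.

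Whether the change between days 1 and 7 differed between allografts and T cells was tested in a fit over all 18 arrays. The change was larger in the allografts for 8 of 8 members, where 23.5% of 22327 probe sets were called in that direction. Ido1 passed the filter of this fit only through its 3 allograft arrays of day 7, so it had to differ and its calls here and between sample types on day 7 are no support. The difference between the changes was 5.48 ± 0.53 for Ubd (adjusted p = 7.04e-06), 5.37 ± 0.26 for Ido1 (adjusted p = 1.29e-07) and 3.39 ± 0.45 for Socs1 (adjusted p = 8.57e-05). The other Socs1 probe set gave -0.37 ± 0.24 (adjusted p = 0.22). It was 2.83 ± 0.22 for Gbp2, 2.63 ± 0.26 for Irf8, 1.98 ± 0.26 for Irf1 and 0.77 ± 0.15 for Ifngr1. For Ifng it was 1.86 ± 0.51 (adjusted p = 0.00991). The Ifng call was lost without the cyclosporine arrays (1.54, adjusted p = 0.125) and without the cyclosporine plus peptide arrays (1.51, adjusted p = 0.0811), and the value was 2.52 without the untreated day 1 T cell array. Of the 49 other pathway genes 41 were called in the same direction and 0 in the other.

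Levels were then compared between T cells and allografts on each day. Over all probe sets the median difference was 0.14 to 0.18 in these comparisons as deposited, 0.19 to 0.26 with quantile normalization and 0.21 to 0.33 with median centring. On day 1, 6 members were higher in T cells, where 45.1% of probe sets were, led by Socs1 (2.48 ± 0.32), Irf8 (1.63 ± 0.18) and Ubd (1.60 ± 0.37). Without the untreated day 1 T cell array these were 2.77, 1.42 and 1.67, and Ifngr1 was 0.28 (adjusted p = 0.0223), against 0.43 with it. The other Socs1 probe set was called in the opposite direction on day 1, at -0.49 ± 0.17 (adjusted p = 0.0176), and stood at -0.09 ± 0.17 on day 3 and -0.11 ± 0.17 on day 7. Ido1 was called lower on day 1 (-0.43 ± 0.18, adjusted p = 0.0454), where 35.9% of probe sets were, but its values on all 6 arrays lay under the 40th percentile and the call was lost without the untreated day 1 T cell array (-0.25, adjusted p = 0.26). It was also lost when the allograft and T cell arrays of one treatment and day were taken as a block (adjusted p = 0.0901). Ifng stood at 0.67 ± 0.36 (adjusted p = 0.104) on day 1 and at 1.32 (adjusted p = 0.000171) without that array. On day 3, 6 members were higher in T cells, where 46.5% of probe sets were, with Socs1 at 2.26 ± 0.32, Irf1 at 1.04 ± 0.19 and Gbp2 at 0.93 ± 0.15. Ifng on day 3, at 0.92 ± 0.36 (adjusted p = 0.0319), lost its call without the cyclosporine arrays (0.57, adjusted p = 0.316).

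On day 7, 8 of 8 members were lower in T cells than in allografts, where 32.6% of probe sets were. Ido1, which passed the filter only through these day 7 allografts, differed by -5.80 ± 0.18 (adjusted p = 2.95e-11), Ubd by -3.89 ± 0.37 (adjusted p = 8.05e-07) and Gbp2 by -1.83 ± 0.15 (adjusted p = 2.26e-07). Ifng differed by -1.19 ± 0.36 (adjusted p = 0.00908), with 159 to 185 in T cells and 389 to 478 in allografts. The call was lost without the cyclosporine arrays (-1.18, adjusted p = 0.0631). Ifngr1 differed by -0.34 ± 0.11 (adjusted p = 0.0124), which was lost with quantile normalization (-0.16, adjusted p = 0.181). Irf8 differed by -0.99 ± 0.18, Socs1 by -0.91 ± 0.32 and Irf1 by -0.86 ± 0.19. The Socs1 call was lost without the cyclosporine arrays (-0.95, adjusted p = 0.0648) and without the cyclosporine plus peptide arrays (-0.82, adjusted p = 0.123).

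The treatments were compared with no treatment, and with each other, to ask what cyclosporine and the added peptide changed. Averaged over the 3 days, limma called 0 of 8 members and 0% of probe sets in the allografts in each of the 3 comparisons. Ifng stood lowest relative to its error, at -0.45 ± 0.14 with cyclosporine plus peptide (adjusted p = 0.221) and -0.34 ± 0.14 with cyclosporine (adjusted p = 0.407), both against the same untreated arrays. At an unadjusted p below 0.05, Ifng was the only member in each of these comparisons, among 3156 and 2288 probe sets. Without the untreated allograft of day 3 these values were -0.29 and -0.18. Cyclosporine plus peptide differed from cyclosporine alone by -0.11 ± 0.14 for Ifng, with all 8 members between -0.11 and 0.11 and 0 of them at an unadjusted p below 0.05. A p that misses the threshold does not show that the treatments act alike.

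In T cells the averaged comparisons also called 0 of 7 members and 0% of probe sets. Gbp2 with cyclosporine plus peptide (-0.33 ± 0.13, adjusted p = 0.189, or 0.286 without the untreated day 1 array) was the only member with an unadjusted p below 0.05 against untreated, and cyclosporine alone gave 0 such members. Cyclosporine plus peptide against cyclosporine also gave 0 such members. Whether a treatment difference depended on the sample type was tested for cyclosporine and for cyclosporine plus peptide, and 0 of 8 members and 0.00448% of probe sets were called in each. At an unadjusted p below 0.05 there was 1 member for cyclosporine, Ifng (-1.17 ± 0.51, adjusted p = 0.466), and 0 for cyclosporine plus peptide. Without the untreated day 1 T cell array the Ifng value was -0.51.

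The averages covered days that differed from each other, so treated allografts, with or without peptide, were also compared with the untreated allograft of the same day. Each day had 1 untreated array, which was assumed to vary as the treated arrays did. On day 3 the untreated allograft was higher for 7 of the 8 members than either treated one. Over all probe sets, the treated array was the higher one for 49.8% with cyclosporine and 45.6% with cyclosporine plus peptide. Both shares use the same untreated array, and the share below it in both was not counted. Socs1 had 73.7 with cyclosporine plus peptide and 65.8 with cyclosporine, against 238 without treatment. Ubd had 303 with cyclosporine plus peptide and 153 with cyclosporine, against 587 without treatment. Irf1 had 1939 and 1607 in these treated grafts, against 3219 in the untreated one, and Gbp2 had 1126 and 1068, against 1761. The exception was Ido1, with 46.5 and 46.1 in the treated grafts against 30.7 in the untreated one, all under the 40th percentile. Ifng, among the lower 7, was also under it on all these arrays, with 44.5 and 50.5 in the treated grafts against 88.0 in the untreated one. The Socs1 values of the treated grafts were under it too.

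Of these differences on day 3, only that of Socs1 was called, at -1.57 ± 0.18 (adjusted p = 0.0132), where 1.12% of probe sets were lower and 1.38% higher. Gbp2 stood at -0.68 ± 0.15 (adjusted p = 0.0533), Irf1 at -0.86 ± 0.19 (adjusted p = 0.0568), Ifng at -0.71 ± 0.18 (adjusted p = 0.074) and Ubd at -1.38 ± 0.42 (adjusted p = 0.129). The median of the 8 members was -0.69, against -0.01 over all probe sets. An unadjusted p below 0.05 was reached by 6 members, among 3820 of the 19737 probe sets. The Socs1 call was lost when the spread was estimated without a trend in mean signal (adjusted p = 0.113), a setting under which 0 of 19737 probe sets were called. The other Socs1 probe set stood at 0.19 ± 0.16 (adjusted p = 0.577). When the cyclosporine arrays of the other days were left out, 4 members were called lower: Socs1, Irf1, Gbp2 and Ubd. Leaving out the cyclosporine plus peptide arrays of the other days gave the same differences. In both settings only the treated pair of day 3 was repeated, so they are not separate checks.

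Set side by side as single arrays of day 3, 5 of 8 members lay more than 0.5 below the untreated graft with cyclosporine plus peptide, where 4.91% of all probe sets did. With cyclosporine alone 5 of 8 did, where 3.24% of all probe sets did. Both values rest on the same untreated array. That array also carried a neutrophil marker sum of 24390, against 9052 with cyclosporine plus peptide and 10290 with cyclosporine. Its T cell marker sum was 3069, against 2045 and 1929, and its macrophage sum 26840, against 23200 and 20610. Its cardiomyocyte sum was 67610, against 78860 and 78200. The part of these markers in the day 3 differences was not tested.

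On day 1, 0 of 8 members and 0% of probe sets were called between treated and untreated allografts, with 0 members at an unadjusted p below 0.05. Ubd had 96.7 with cyclosporine plus peptide, 214 with cyclosporine and 128.5 without treatment, so the treated arrays lay on either side of the untreated one. On day 7, 0 of 8 members were called, where 4.26% of probe sets were, and 0 had an unadjusted p below 0.05. The largest day 7 difference was that of Irf8, with 4844 and 4816 in the treated grafts against 3861 in the untreated one (0.32 ± 0.17, adjusted p = 0.385). It was called, with the same difference, when the cyclosporine or the cyclosporine plus peptide arrays of the other days were left out. In both settings only the treated pair of day 7 was repeated, so they are not separate checks. Whether the treated minus untreated difference changed between days 3 and 7 was not tested.

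**Figure D3:**
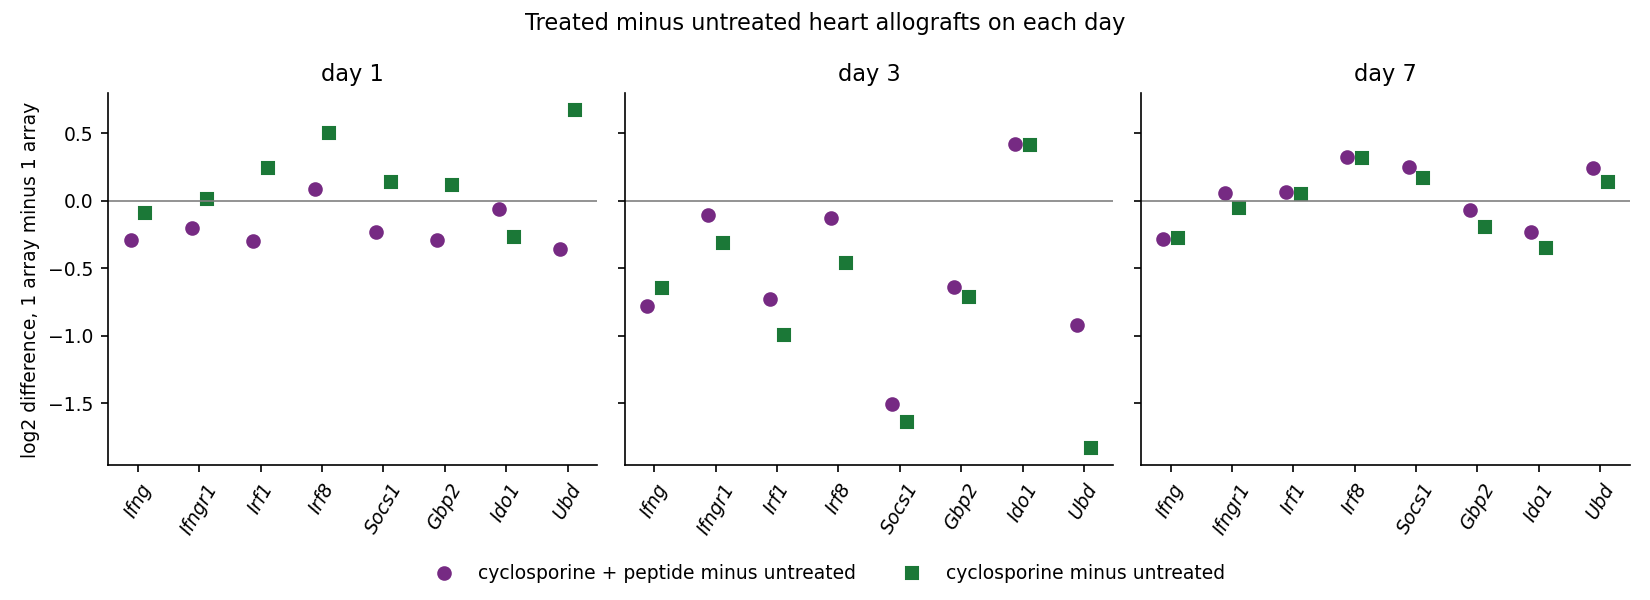
Treated minus untreated allografts of the same day on the log2(intensity + 16) scale, 1 array minus 1 array, for cyclosporine plus peptide (purple circles) and cyclosporine (green squares). On day 3, 7 of 8 genes lie below 0 with each treatment, with a median of -0.68 for each, while on day 7 all values lie between -0.35 and 0.33. Both treatments share the untreated array of the day.

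The other pathway genes were set against the same contrast. On day 3, 17 of 49 were lower and 1 higher in treated than in untreated allografts, with a median of -0.34, and 0 were called without the trend. The chemokine genes held the largest difference, with Cxcl9 at 545 with cyclosporine plus peptide and 521 with cyclosporine, against 1762 untreated (-1.70 ± 0.19, adjusted p = 0.0128). Cxcl10 stood at -1.35 ± 0.24 (adjusted p = 0.0307), and Cxcl11 was not called. Of 5 GTPase genes 4 were lower, led by Igtp (-1.05 ± 0.16), Irgm2 (-0.94 ± 0.17) and Gbp7 (-0.84 ± 0.17). Of 10 antigen processing genes 4 were lower, led by Tap1 (-1.08 ± 0.22), Psmb9 (-0.69 ± 0.08) and Psmb10 (-0.52 ± 0.10). Of 6 transcription regulators, Batf2 (-0.92 ± 0.12) and Nlrc5 (-0.74 ± 0.15) were lower. Irf7, a regulator better known for type I interferon responses, was the gene called higher (0.48 ± 0.08, adjusted p = 0.0254).

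The remaining calls on day 3 were Ebi3 (-1.12 ± 0.19) among 5 inducers, Jak2 (-0.52 ± 0.07) among 4 relay genes, Ptpn6 (-0.48 ± 0.09) among 6 negative regulators, and Il18bp (-0.77 ± 0.11) and Wars1 (-0.38 ± 0.07) among 10 other targets. On day 1, 0 of the 49 were called. On day 7, 2 were lower, Gch1 (-0.57 ± 0.11) and Fcgr1a (-0.48 ± 0.08), and Serping1 was higher (0.31 ± 0.06). Of all probe sets, 1.39% were lower and 2.87% higher on that day.

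**Figure D4:**
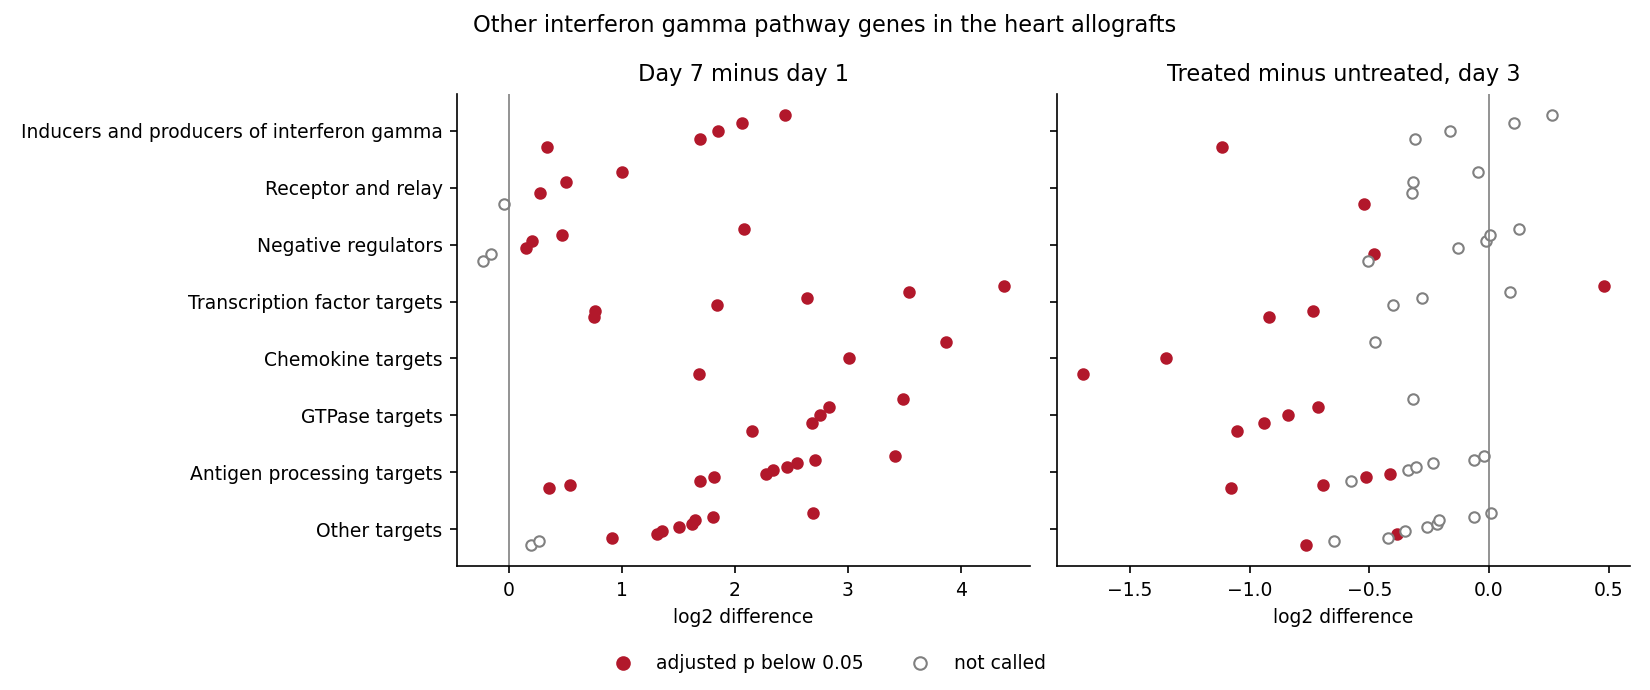
Log2 differences of the 49 other pathway genes tested in the allografts, in 8 lists, for day 7 minus day 1 (left) and for treated minus untreated on day 3 (right). Each point is a gene, filled where the adjusted p is below 0.05. On the left 44 genes are called higher, and on the right 17 are called lower and 1 higher.

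In T cells of day 1, Ifng was the only member called between treated and untreated recipients, with 176 with cyclosporine plus peptide and 166 with cyclosporine, against 29.5 without treatment (2.04 ± 0.37, adjusted p = 0.0329), where 0.719% of probe sets were higher. This rests wholly on the untreated array that stood apart in its neutrophil, B cell and T cell markers, and no value without it can be given. The part of those markers was not tested. The call was lost without the trend (adjusted p = 0.059). On the same array Irf8 was high, with 2662 and 2227 in the treated samples against 4127 in the untreated one (-0.76 ± 0.18, adjusted p = 0.0743). It was called lower when the cyclosporine arrays of the other days were left out, a setting with only the treated pair of day 1 repeated. Of 46 other pathway genes 5 were lower there, led by Gch1 (-3.18 ± 0.64), Ebi3 (-1.59 ± 0.22) and Icam1 (-1.11 ± 0.12), and Stat4 was higher (0.54 ± 0.10), where 2.45% of all probe sets were lower. On days 3 and 7, 0 of 7 members and 0% of probe sets were called in T cells. Those with an unadjusted p below 0.05 were 2 and 0 members, among 1111 and 932 probe sets. The 2 on day 3 were Socs1 (-0.59 ± 0.16, adjusted p = 0.669) and Ubd (-0.72 ± 0.25, adjusted p = 0.807).

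Genes with the most similar profiles were sought among the 11144 genes above the filter in the allografts. Over the 9 allograft arrays, Pearson's r with Ifng was 0.995 for Gbp2, 0.979 for Socs1, 0.978 for Ubd and 0.976 for Ido1, and lowest among the members for Ifngr1 (0.897). The highest values among other genes were those of Fbxw17 (0.997), Eif1ad (0.997), Fgr (0.997), Zswim3 (0.996) and Hsd3b7 (0.996). Such values are common here, since 879 genes had r above 0.95 and the arrays share the same step between days 3 and 7. When the mean of each day was first taken from every gene, 29 genes had r above 0.95 with the members' mean. They were led by Gbp7 (0.995), Abca3 (0.994), Grin3b (0.980), Cers5 (0.978) and Sec23b (0.978). Among the members, which enter that mean, Irf1 had 0.995, Ubd 0.965 and Gbp2 0.963, and Ido1 ran the other way at -0.75. With the untreated array of day 3 among only 9 points, these values describe these arrays and no more.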

How the data were processed

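Per the labels, an Enzo kit amplified total RNA into cRNA carrying biotin. The authors deposited linear intensities, 1 for each probe set on each array. How they were summarised and normalized is not given in the sources used here. On all arrays the upper quartile lay at 728 to 758, and 0.138% of values lay below 0, so the deposited values were already scaled and background-corrected. Of 31042 probe sets other than the 57 controls, 20826 have a single symbol in GEO's platform annotation, 436 several and 9780 none, and 20758 of the Entrez identifiers matched the RefSeq table, which changed 0 symbols.

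Values below 0 were set to 0 and used as log2(intensity + 16), which understates changes of weak genes. Tests were run on probe sets above the array's 40th percentile on at least 3 arrays of the fit. Limma 3.58.1 in R 4.3.3 was used with a trend and Benjamini-Hochberg adjustment over all probe sets tested. Treatment and day were fitted to the 9 arrays of each sample type (4 residual degrees of freedom), with their interactions with sample type to all 18 (8), and treated against untreated per day to 9 (3). No combination has more than 1 array, so the number of arrays limits every value. Promoter windows were searched in Python 3.11.15.

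All 8 members with a probe set and their values are named. For other pathway lists, the 3 largest called differences per list and comparison are named, with any called the other way. The 5 genes with the highest r were named for each measure of likeness. The members and lists were chosen with earlier results of these data known. Alternatives were quantile normalization, median centring, offsets of 4 and 64, no filter, the mean of a gene's probe sets, no trend, leaving out arrays, and a block for each treatment and day.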

Additional observations from a re-analysis of the deposited data

Results flagged for a closer look

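The change between days 1 and 7 was larger in allografts than in T cells for all 8 members, by a test of the difference between the 2 changes. On the log2 scale this difference was 1.86 for Ifng, 0.77 for Ifngr1, 1.98 for Irf1, 2.63 for Irf8, 3.39 for Socs1, 2.83 for Gbp2, 5.37 for Ido1 and 5.48 for Ubd. Ido1 passed the filter of this fit only through its 3 allograft arrays of day 7, so its call is no support. Its T cell arrays lay below the filter on all days. The Ifng call was lost without the cyclosporine arrays (1.54, adjusted p = 0.125). It was also lost without the cyclosporine plus peptide arrays (1.51, adjusted p = 0.0811). For Socs1 the other probe set gave -0.37 ± 0.24 (adjusted p = 0.22), so the result holds for the brighter probe set only.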

How the results depend on the processing

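Over the alternatives run, 1894 values of single members kept their direction and side of the threshold, 21 lost and 16 gained a call, 82 values without a call moved in sign, and 0 called values turned in sign. Between days 1 and 3 in allografts, 1 member was called as reported, 0 with median centring, and 0 to 3 when arrays were left out. When arrays were left out, 5 to 8 members were called between days 7 and 3 and between days 7 and 1 in allografts. The count of 5 arises without the untreated arrays, where only 5 members passed the filter on fewer arrays. Of 18883 to 19619 probe sets tested in these settings, 7289 to 10499 and 9833 to 12926 were called in either direction. T cells against allografts on day 7 gave 5 to 8 members, where 14498 to 17115 of 21811 to 22284 probe sets were called in either direction. Treated against untreated allografts gave 2 members on day 3 with an offset of 64 (Socs1 and Gbp2), 0 without the trend and 4 when arrays of the other days were left out, and on day 7 it gave 0 as reported and 1 when they were left out. Treated against untreated T cells on day 1 gave 1 member as reported, 0 without the trend and 2 (Ifng and Irf8) when arrays were left out. Of the other pathway genes, 18 were called on day 3 as reported and 0 without the trend. The cause was not tested except where fewer genes passed the filter. In the treated against untreated contrasts, leaving out arrays of the other days kept only the treated pair of that day repeated.

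Over all probe sets, the day 3 contrast in allografts called 493 (272 higher, 221 lower), 620 with centring (440 higher, 180 lower), 293 with the mean of a gene's probe sets and 0 without the trend. The day 7 contrast called 841, or 219 without the trend, and that of T cells on day 1 called 616, or 268. Days 3 and 1 in allografts differed for 5429 (2883 higher, 2546 lower), for 5923 with centring (2086 higher, 3837 lower) and for 2920 without the untreated allograft of day 3. Days 7 and 1 in T cells differed for 112, 202 with centring, 53 without the trend and 16 without the untreated day 1 array. Cyclosporine plus peptide against untreated T cells called 2484 probe sets without the day 1 arrays, but 0 members. The arrays without the untreated array of day 3 or 7, or without the untreated T cell array of day 1, were chosen after seeing the data, as was a fit with the allograft and T cell array of one treatment and day as a replicate block. The labels do not say that such arrays share an animal. Under that block 6, 6 and 8 members were called between T cells and allografts on days 1, 3 and 7. Of 22327 probe sets, 17824, 17664 and 16542 were called in either direction. For the change between days 1 and 7, 8 members were called, and 9668 probe sets in either direction. Ido1 on day 1 lost its call under the block (adjusted p = 0.0901). Pairing by replicate number had no meaning, since each group has 1 array. Signal near the background limits Ifng, Socs1 and Ido1 in early allografts.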
